A study of Mus musculus with 6 samples.

Results

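Expression of 10 genes of the TGF-beta and activin pathway was described in mouse regulatory T cells, 4 coding for receptors (Tgfbr1, Tgfbr2, Tgfbr3, Acvrl1), 4 for SMAD proteins (Smad2, Smad3, Smad4, Smad7) and 2 for nuclear inhibitors of SMADs (Ski, Skil). The genes were taken by symbol, and each matched 1 Ensembl gene ID among the 47069 that both deposited tables share. These genes and the lists of related genes below were chosen with earlier results of these data known. Counts set beside the share of all genes therefore describe them and do not test them. All 10 passed the filter on low values, a mean FPKM of 1 or more. FPKM are fragments scaled to gene length and to the mapped fragments of the library, so levels of different genes can be set side by side.

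The study sequenced RNA of CD4+GFP+CD62Lhigh regulatory T cells sorted from lymph node and spleen and then activated with Dynabeads for 48 h or 72 h. Mice labelled Foxp3CreNoc4l+/fl (Het) carried 1 floxed Noc4l allele and those labelled Foxp3CreNoc4lfl/fl (cKO) carried 2. Foxp3-driven Cre, GFP and at least 1 floxed allele were thus common to both genotypes, there was no group without Cre, and the labels do not state the ages of the mice. There were 6 libraries, 1 per genotype at 48 h (Het 1 and cKO 2) and 2 per genotype at 72 h (Het 1 and Het 3, cKO 2 and cKO 4). Replicates 1 and 2 were deposited in one table and replicates 3 and 4 in another, so each difference between genotypes was taken within a table. The labels do not say whether libraries came from separate animals or pools, and p-values therefore measure only the spread between these libraries, which may be technical. SE and p-values are moderated by limma, so the spread of a gene is drawn toward that of other genes of like level.

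TGF-beta is stored as a latent complex and binds, once released, to a type II receptor (Tgfbr2), which activates a type I receptor (Tgfbr1, also called ALK5). Tgfbr1 then phosphorylates Smad2 and Smad3, which join Smad4 and enter the nucleus, while Acvrl1 (ALK1), best known from endothelial cells, is a type I receptor for BMP9 and BMP10 that acts mainly through Smad1 and Smad5. In T cells this pathway restrains proliferation and effector differentiation and helps to induce and maintain Foxp3.

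The targeted gene did not follow the labels. Noc4l was higher in the library labelled cKO of each of the 3 pairs, at 124 against 99.1 FPKM at 48 h and at 81.7 against 48.8 and 58.1 against 40.8 FPKM at 72 h. The tables give 1 value per gene and cannot show the loss of single exons, so directions below refer to libraries as labelled. All 7 regulatory T cell markers (Cd3e, Cd4, Foxp3, Il2ra, Ctla4, Ikzf2, Tnfrsf18) were above 1 FPKM in every library, with a summed level of 2851 to 3603 FPKM. The 10 neutrophil and myeloid markers summed to 327 FPKM in cKO 2 at 48 h and to 261 in cKO 2 at 72 h, against at most 1.18 in the other 4 libraries. The 7 CD8 T and NK cell markers summed to 300 FPKM in cKO 2 and 120 in cKO 4 at 72 h, while Het 1 and Het 3 held 79.0 and 14.6. In cKO 4 most of the sum was Nkg7 (89.1 FPKM) and Gzma (22.8), against 6.48 and 1.92 in Het 3. Cd8b1 was not higher in cKO 4 than in Het 3 (4.47 against 4.69 FPKM), and Cd8a stood at 2.24 against 1.01. In cKO 2 at 72 h Cd8b1 stood at 19.1 FPKM and Cd8a at 39.0, against 11.5 and 20.3 in Het 1. The 6 B cell markers summed at 72 h to 265 and 496 FPKM in cKO 2 and cKO 4, with 160 and 317 for Het, most of it Ighm. Erythroid and platelet markers reached at most 24.6 FPKM in sum. The part of these other cell types in the values below was not tested. In bulk RNA, fewer cells of a type and less RNA per cell cannot be told apart.

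At 72 h the largest differences between genotypes among the 10 genes were those of 3 receptors and 1 receptor-activated SMAD. Acvrl1 and Smad3 were lower in the libraries labelled cKO, and Tgfbr1 and Tgfbr3 were higher. The log2 fold change, on the log2(FPKM + 1) scale, was -2.96 for Acvrl1 and 1.69 for Tgfbr3, while Tgfbr2, Smad2, Smad4, Smad7 and Ski lay between -0.26 and 0.19. By limma's adjusted p under 0.05, 0 of the 10 genes were called, as were 0% of the 12488 genes tested. The fit had 4 libraries and 1 residual degree of freedom. At an unadjusted p under 0.05 the count was 5 of 10 (Acvrl1, Tgfbr1, Tgfbr3, Smad3 and Skil), against 17.3% of all genes. The median log2 fold change of the 10 genes was 0.03, with 5 higher and 5 lower, beside 0.08 over all genes tested. In 6 genes both cKO values lay above or below both Het values (the 5 above and Smad2), which was true of 38.7% of all genes. Acvrl1 and Tgfbr3 differed at least 2-fold on the log2(FPKM + 1) scale the same way in both pairs, against 2.45% of all genes. As the genes were chosen with earlier results of these data known, these shares are no test of the group.

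**Figure D1:**
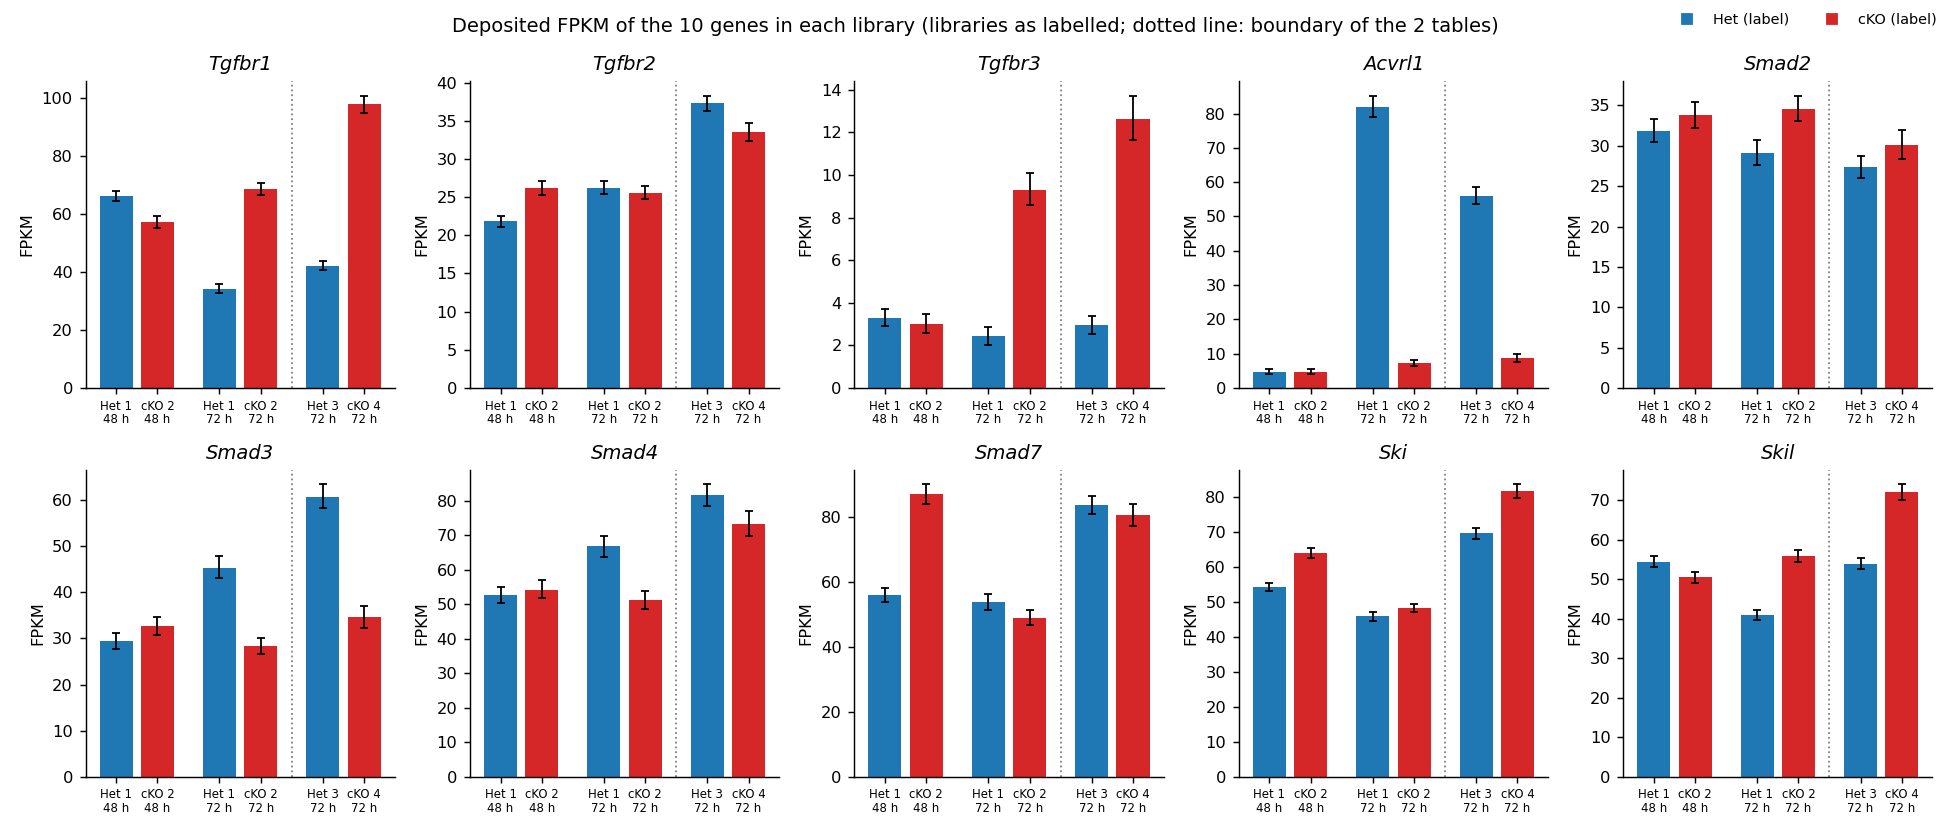
FPKM (y axis, from 0) of the 10 genes in each of the 6 libraries (x axis), blue for Het and red for cKO as labelled, with error bars for the 95% Poisson counting interval and a dotted line between the 2 tables. Acvrl1 is at 82.0 and 56.1 FPKM in the Het libraries at 72 h and at 4.60 to 8.59 in the other 4 libraries, while the bars of Smad2 differ little.

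Acvrl1 (ENSMUSG00000000530) had the widest range of the 10 genes, 17.8-fold between the lowest and the highest library. At 48 h, Het 1 held 4.77 FPKM and cKO 2 held 4.60. At 72 h, Het 1 held 82.0 FPKM and Het 3 held 56.1, while cKO 2 and cKO 4 held 7.14 and 8.59. Both Het libraries at 72 h were thus high and the libraries labelled cKO lay near the values at 48 h. Acvrl1 was 11.5-fold higher in Het 1 than in cKO 2 and 6.53-fold higher in Het 3 than in cKO 4. On the log2 scale the difference was -2.96 ± 0.23 (SE, n = 2 and 2 libraries), with a limma adjusted p of 0.106. Among the 10 genes at 72 h, Acvrl1 ranked highest of all in Het 1, 5 of 10 in Het 3 and lowest in both cKO libraries. Its annotated exons overlap an antisense gene, Gm16031, with a mean of 0.0973 FPKM, and the counting is not stated to use strand.

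Endothelial cells are where Acvrl1 is best known, and their markers were measured in the same libraries. Cdh5 reached at most 0.217 FPKM, Kdr 0.0834 and Tie1 0.0490 in any library, and Tek was listed at 0 in Het 1 at 72 h. Of the 10 endothelial and stromal markers, 1 to 3 were above 1 FPKM, with a summed level at 72 h of 64.1 and 70.9 FPKM for Het, beside 40.0 and 54.2 for cKO as labelled. Nearly all of it was Pecam1, which leukocytes also make, at 61.7 and 66.8 FPKM against 38.6 and 49.6, so that Pecam1 was higher in the libraries with high Acvrl1. The part of these cells in the Acvrl1 values was not tested.

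Tgfbr1 (ENSMUSG00000007613), the type I receptor of TGF-beta itself, showed the opposite order. Its values at 48 h were 66.2 FPKM (Het 1) and 57.3 (cKO 2). At 72 h, Het 1 and Het 3 held 34.3 and 42.2, while cKO 2 and cKO 4 held 68.5 and 97.9. The Het libraries were low at 72 h, and those labelled cKO were above them 2.0-fold in the pair of replicates 1 and 2 and 2.32-fold in the pair of 3 and 4. This came to 1.09 ± 0.13 on the log2 scale (SE), with a limma adjusted p of 0.121. In both cKO libraries at 72 h Tgfbr1 was the highest of the 10 genes, while it ranked 7 of 10 in both Het libraries.

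The balance between these type I receptors was read within each library from FPKM, which are per length. Acvrl1 amounted to 0.0721 of Tgfbr1 in Het 1 and 0.0803 in cKO 2 at 48 h. At 72 h the ratio was 2.39 for Het 1 and 1.33 for Het 3, with 0.104 for cKO 2 and 0.0878 for cKO 4. Acvrl1 exceeded Tgfbr1 in the 2 Het libraries at 72 h and in none of the other 4.

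**Figure D2:**
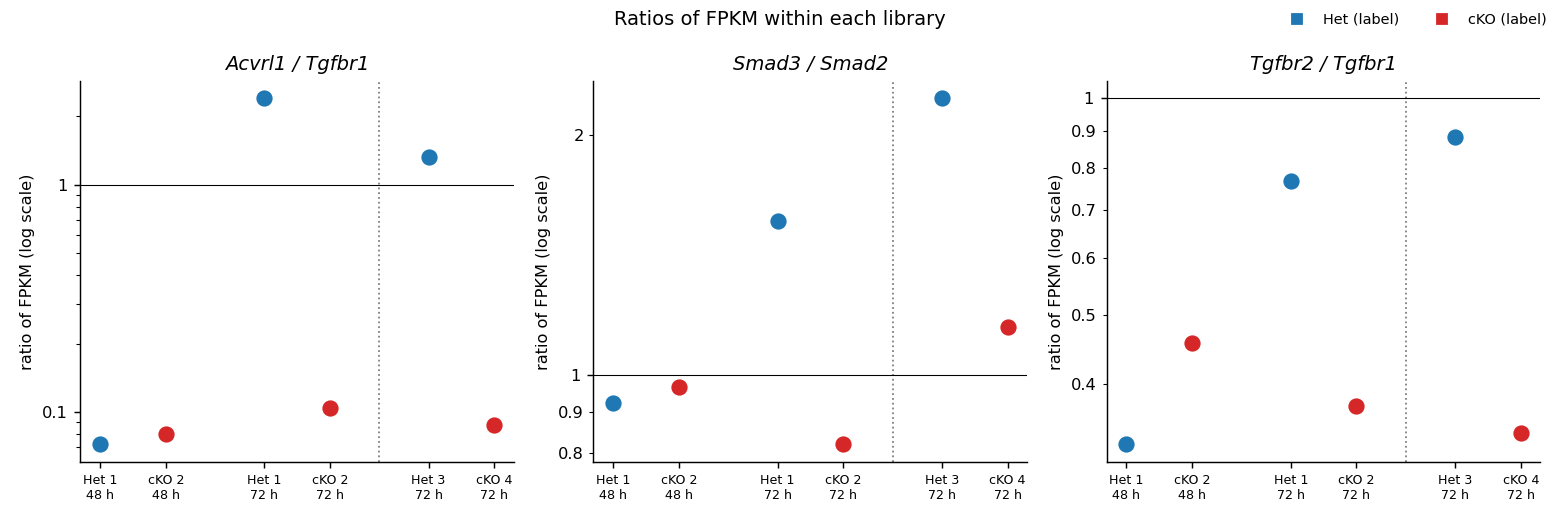
Ratio of FPKM (y axis, log scale) of Acvrl1 to Tgfbr1, Smad3 to Smad2 and Tgfbr2 to Tgfbr1 in each library (x axis), blue for Het and red for cKO as labelled. The Het libraries at 72 h are at 2.39 and 1.33 for Acvrl1 to Tgfbr1, and the other 4 libraries lie between 0.0721 and 0.104.

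Tgfbr2 (ENSMUSG00000032440), the type II receptor that binds TGF-beta, differed little between genotypes. At 48 h, Het 1 held 21.8 FPKM and cKO 2 held 26.2. At 72 h, Het 1 and Het 3 held 26.2 and 37.3, and cKO 2 and cKO 4 held 25.6 and 33.5. Values were higher in the second table for both genotypes, and the genotypes overlapped. Its log2 fold change was -0.09, with a 95% interval of -0.45 to 0.26. The ratio of Tgfbr2 to Tgfbr1 was 0.766 and 0.883 in Het at 72 h, against 0.373 and 0.342 in the libraries labelled cKO.

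Tgfbr3 (ENSMUSG00000029287), or betaglycan, presents TGF-beta to Tgfbr2 and binds inhibin. It was the least expressed of the 10 genes in Het, at 3.30 FPKM at 48 h and at 2.42 and 2.95 at 72 h. The libraries labelled cKO held 3.004 FPKM at 48 h, and 9.31 (cKO 2) and 12.7 (cKO 4) at 72 h. Only the cKO libraries at 72 h were high among the 6, by 3.85-fold over Het in one pair and 4.29-fold in the other. The difference was 1.69 ± 0.16 on the log2 scale (SE), with a limma adjusted p of 0.106. These values rest on an estimated 139 to 610 fragments per library, and the 95% counting intervals at 72 h (2.03 to 2.86 and 2.56 to 3.40 FPKM in Het, 8.58 to 10.1 and 11.6 to 13.7 in cKO) did not overlap. The summed CD8 T and NK cell markers were also higher in the library labelled cKO of both pairs (300 against 79.0 FPKM and 120 against 14.6). In cKO 4 the sum was mostly Nkg7 and Gzma. Cd8b1 and Klrb1c were not higher in cKO 4 than in Het 3. The other markers of that list were higher, with Cd8a at 2.24 against 1.01 FPKM. In cKO 2 all of them were higher than in Het 1 at 72 h, with Cd8a at 39.0 against 20.3 FPKM and Cd8b1 at 19.1 against 11.5. The neutrophil and myeloid markers were higher in cKO 2 (261 FPKM) but not in cKO 4 (0.434). The part of these cell types in the Tgfbr3 values was not tested. A transcript not yet classified in the annotation, Gm43422 on the same strand, overlaps exons of Tgfbr3 and had a mean of 0.0277 FPKM.

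**Figure D3:**
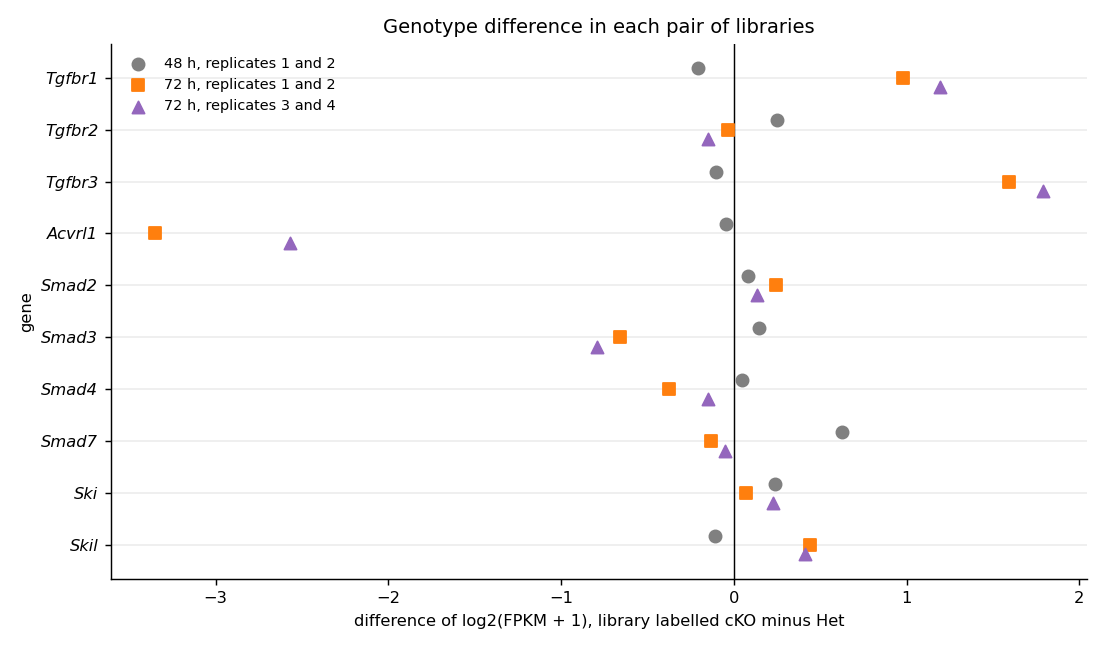
Difference of log2(FPKM + 1) between the library labelled cKO and Het (x axis) for each gene (y axis) in the pair at 48 h (circles) and the 2 pairs at 72 h (squares and triangles). The pairs at 72 h lie on the same side of 0 for each gene, from -3.35 and -2.57 for Acvrl1 to 1.59 and 1.79 for Tgfbr3, and 7 genes have the circle on the other side.

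Of the SMADs activated by Tgfbr1, Smad3 differed more between genotypes than Smad2. Smad3 (ENSMUSG00000032402), which binds DNA directly, stood at 29.4 FPKM (Het 1) and 32.7 (cKO 2) at 48 h. At 72 h, Het 1 and Het 3 held 45.4 and 60.8, while cKO 2 and cKO 4 held 28.4 and 34.6. The Het libraries at 72 h were the highest of the 6, 1.60-fold and 1.76-fold above the library labelled cKO of their pair. The difference was -0.73 ± 0.13 on the log2 scale (SE), with a limma adjusted p of 0.153.

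Smad2 (ENSMUSG00000024563), whose common splice form does not bind DNA by itself, varied least of the 10 genes, 1.27-fold over the 6 libraries. It lay between 27.4 and 34.6 FPKM throughout, with a log2 fold change of 0.19 at 72 h and a 95% interval of -0.17 to 0.54. The ratio of Smad3 to Smad2 was 0.923 and 0.967 at 48 h, 1.56 and 2.22 in Het at 72 h, and 0.819 and 1.15 in the libraries labelled cKO at 72 h. The sum of both at 72 h was 74.5 and 88.2 FPKM for Het, beside 63.0 and 64.7 for cKO as labelled.

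Smad4 (ENSMUSG00000024515), the shared partner of activated SMADs, stood at 52.6 (Het 1) and 54.3 FPKM (cKO 2) at 48 h. One pair at 72 h held 66.8 (Het 1) and 51.2 (cKO 2), and the other 81.6 (Het 3) and 73.4 (cKO 4). The libraries labelled cKO were lower in each pair, while the genotypes overlapped across tables. Its log2 fold change was -0.26, with a 95% interval of -0.64 to 0.11.

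Upstream sequence was compared for Tgfbr1, which was higher in the libraries labelled cKO, Smad3, which was lower, and Tgfbr2, which differed little. The 250 bases before the annotated start were taken from RefSeq (build GRCm38.p6, not the build of the expression files). Windows of 4 of the 10 genes were used (Tgfbr1, Tgfbr2, Smad3 and Ski). Acvrl1, Tgfbr3 and Skil had no entry. The chromosome that holds Smad2, Smad4 and Smad7 was left out of the search, so their windows were not looked at. Capitals mark the SMAD box CAGAC and the GC box GGGCGG on either strand, which do not overlap each other here. The windows lie at chr4:47352972-47353221 on the plus strand for Tgfbr1 (the more upstream of 2 listed starts), at chr9:63757995-63758244 on the minus strand for Smad3 and at chr9:116175364-116175613 on the minus strand for Tgfbr2, each outside the gene's own annotated exons and printed 5′ to 3′.
Tgfbr1: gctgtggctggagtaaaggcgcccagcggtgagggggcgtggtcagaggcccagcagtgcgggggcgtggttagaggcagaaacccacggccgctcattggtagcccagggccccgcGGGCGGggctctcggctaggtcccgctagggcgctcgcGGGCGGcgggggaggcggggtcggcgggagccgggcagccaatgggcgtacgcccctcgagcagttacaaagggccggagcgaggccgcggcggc
Smad3: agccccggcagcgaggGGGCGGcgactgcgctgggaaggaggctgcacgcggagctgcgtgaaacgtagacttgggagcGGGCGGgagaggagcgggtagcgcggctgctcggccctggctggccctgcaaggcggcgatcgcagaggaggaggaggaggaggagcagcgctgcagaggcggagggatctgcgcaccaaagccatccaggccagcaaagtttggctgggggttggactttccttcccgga
Tgfbr2: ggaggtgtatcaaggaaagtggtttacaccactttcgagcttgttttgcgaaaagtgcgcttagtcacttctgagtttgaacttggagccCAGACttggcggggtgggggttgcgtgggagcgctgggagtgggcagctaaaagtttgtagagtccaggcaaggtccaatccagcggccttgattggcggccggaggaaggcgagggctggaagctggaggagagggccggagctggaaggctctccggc
The printed windows of Tgfbr1 and Smad3 each held 2 GC boxes and 0 SMAD boxes, and that of Tgfbr2 held 1 SMAD box and 0 GC boxes. The window before the other Tgfbr1 start (chr4:47385966-47386215, plus strand) held 1 SMAD box and 0 GC boxes, the same counts as Tgfbr2. The window of Ski, which also differed little between genotypes and overlaps its own annotated exon, held 5 GC boxes and 0 SMAD boxes. Of the 32851 windows of this length in the table, 42.2% held a SMAD box and 32.7% a GC box. GC content was 74.8% for Tgfbr1, 69.2% for Smad3 and 58.4% for Tgfbr2. These are matches of letters and do not show binding.

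The inhibitors were well expressed in every library. Smad7 (ENSMUSG00000025880), an inhibitory SMAD that blocks type I receptors and is itself induced by TGF-beta, stood at 56.0 FPKM (Het 1) and 87.1 (cKO 2) at 48 h. It was the only one of the 10 genes to differ at least 1.5-fold between genotypes at 48 h (1.56-fold in FPKM, 0.63 on the log2(FPKM + 1) scale), against 5.06% of all genes, with 1 library per genotype and no test. One pair at 72 h held 53.9 (Het 1) and 49.1 (cKO 2), and the other 83.7 (Het 3) and 80.6 (cKO 4). Het was 1.10-fold and 1.04-fold the higher one in these pairs, and the log2 fold change was -0.09 with a 95% interval of -0.44 to 0.25. The cKO library at 48 h also held the neutrophil and myeloid markers given above, whose part in this value was not tested.

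Ski (ENSMUSG00000029050), a co-repressor that binds Smad3 and Smad4, stood at 54.3 (Het 1) and 64.1 FPKM (cKO 2) at 48 h. The values at 72 h were 45.9 (Het 1), 48.3 (cKO 2), 69.6 (Het 3) and 81.8 (cKO 4). The library labelled cKO was the higher one in each of the 3 pairs, and the genotypes overlapped across tables at 72 h (log2 fold change 0.15, 95% interval -0.21 to 0.51). Skil (ENSMUSG00000027660), or SnoN, a relative of Ski that TGF-beta induces, stood at 54.5 (Het 1) and 50.5 FPKM (cKO 2) at 48 h. At 72 h, Het 1 and Het 3 held 41.0 and 53.9, while cKO 2 and cKO 4 held 55.8 and 72.0, so that the cKO values lay above both Het values. The difference was 0.42 ± 0.12 on the log2 scale (SE), with a limma adjusted p of 0.237. The sum of Ski and Skil at 72 h was 86.9 and 124 FPKM for Het, beside 104 and 154 for cKO as labelled.

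At 48 h, apart from Smad7, the genotypes were close. The log2 ratios of the other 9 genes lay between -0.21 (Tgfbr1) and 0.25 (Tgfbr2), and Acvrl1 was at -0.04. In 7 of the 10 genes the difference at 48 h had the opposite sign to both pairs at 72 h, against 28.7% of all genes, and many of these differences at 48 h were small. The term for genotype by time, which shares the libraries at 72 h with the comparison above, was -2.92 ± 0.41 (SE) for Acvrl1, 1.79 ± 0.29 for Tgfbr3, 1.29 ± 0.23 for Tgfbr1, -0.88 ± 0.22 for Smad3 and -0.72 ± 0.21 for Smad7. By limma's adjusted p, 0 of the 10 genes and 0% of 12394 genes were called, with adjusted p from 0.742 to 0.828 for these 5. At an unadjusted p under 0.05 they were 5 of 10, against 5.71% of all genes. These shares too are no test of the group, given how the genes were chosen. This fit had 1 residual degree of freedom and 1 library per genotype at 48 h.

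**Figure D4:**
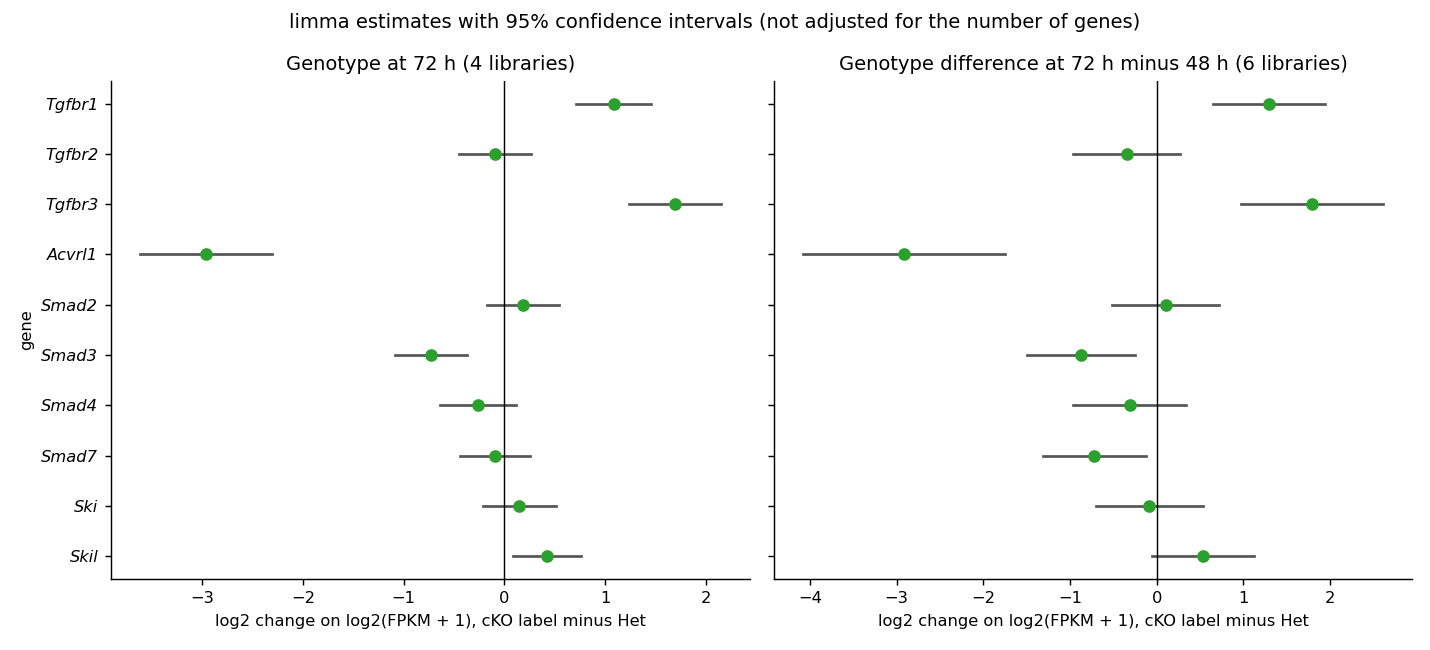
limma estimates (points) with 95% confidence intervals (lines), not adjusted for the number of genes, for the log2 change between genotypes at 72 h (left) and for the difference of that change from 48 h to 72 h (right). Acvrl1 stands at -2.96 and -2.92 and Tgfbr3 at 1.69 and 1.79, while the intervals of Tgfbr2, Smad2, Smad4 and Ski include 0 in both panels.

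From 48 h to 72 h, Het 1 and cKO 2 can be followed within the first table. Acvrl1 went from 4.77 to 82.0 FPKM in Het 1, 17.2-fold, and from 4.60 to 7.14 in cKO 2, 1.55-fold. Tgfbr1 stood at 0.517 of its value at 48 h in Het 1 and at 1.20 in cKO 2, and Smad3 at 1.54 and 0.868. Tgfbr3 was at 0.732 of its value at 48 h in Het 1 and at 3.10 in cKO 2, and Smad7 at 0.963 and 0.564. For Acvrl1, Tgfbr1 and Smad3 the larger shift was thus seen in Het, and for Tgfbr3 and Smad7 in the library labelled cKO. The CD8 T and NK cell markers also shifted, from 29.3 to 79.0 FPKM in sum in Het 1 and from 42.2 to 300 in cKO 2. The neutrophil and myeloid markers went from 327 to 261 in cKO 2. The part of other cell types in these shifts was not tested. In the additive fit of time over both genotypes, 0 of the 10 genes passed limma's adjusted p, against 0.0242% of 12394 genes. Acvrl1 (log2 change 2.19 ± 0.76, SE) and Ski (-0.32 ± 0.12, SE) lay under an unadjusted p of 0.05, 2 of 10 against 11.1% of all genes, with limma adjusted p of 0.427 and 0.442. The value of Acvrl1 depended on single libraries, at 0.733 without Het 1 and 3.65 without cKO 2 at 48 h, and at 1.17 without Het 1 and 3.21 without cKO 2 at 72 h. Both libraries at 48 h were in the first table, so time rests on replicates 1 and 2.

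Averaged over both times, the genotype difference was -1.99 ± 0.62 (SE) for Acvrl1, 1.09 ± 0.39 for Tgfbr3, 0.66 ± 0.28 for Tgfbr1 and -0.44 ± 0.21 for Smad3. These values moved by over 1.5 times when 1 library was left out. Without either library at 48 h they were those at 72 h. Without Het 1 or cKO 2 at 72 h, Acvrl1 stood at -1.31, and without Het 3 or cKO 4, Tgfbr1 stood at 0.387 and Smad3 at -0.257. By limma's adjusted p, 0 of the 10 genes and 0% of 12394 genes were called, and the adjusted p of these 4 ran from 0.344 to 0.424. Acvrl1 and Tgfbr3 lay under an unadjusted p of 0.05, 2 of 10 against 13.3% of all genes. These libraries are those of the comparisons above.

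Of the 4 other type I receptors that passed the filter, Acvr1b, Acvr1c and Bmpr1a were lower in the libraries labelled cKO in both pairs at 72 h, and Acvr1 was not (log2 fold change 0.26). Of 11 other receptors, 8 passed the filter on low values at 72 h, and 1 higher and 3 lower lay under an unadjusted p of 0.05, against 17.3% of all genes. Their median log2 fold change was -0.20, beside 0.08 over all genes. Acvr1b (ALK4), the type I receptor of activin, stood at 25.02 and 23.8 FPKM for Het at 72 h, beside 7.57 and 9.06 for cKO as labelled, and at 8.84 and 7.81 at 48 h. The difference was -1.45 ± 0.15 on the log2 scale (SE), with a limma adjusted p of 0.106. Acvr1c (ALK7) stood at 2.69 and 3.74 FPKM for Het at 72 h against 1.07 and 1.26, with a limma adjusted p of 0.196. Bmpr1a, a type I receptor of bone morphogenetic proteins, stood at 9.26 and 9.30 against 5.11 and 7.21, with a limma adjusted p of 0.273. Eng (endoglin), the accessory receptor that works with Acvrl1 in endothelium, went the other way, with 0.591 and 0.0424 FPKM for Het at 72 h against 6.19 and 3.13 (log2 fold change 2.08 ± 0.23, SE, limma adjusted p = 0.110). At 48 h Eng stood at 1.61 FPKM (Het 1) and 3.11 (cKO 2). The log2 fold changes of the type II receptors were 0.07 for Bmpr2, 0.15 for Acvr2a and -0.48 for Acvr2b. Their limma adjusted p ran from 0.393 to 0.816.

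Of 16 ligands, 4 passed the filter at 72 h (Tgfb1, Gdf11, Bmp7 and Inha). Tgfb1, the ligand that regulatory T cells make and display, stood at 302 and 254 FPKM for Het at 72 h, beside 362 and 365 for cKO as labelled (log2 fold change 0.39 ± 0.14, SE, limma adjusted p = 0.281). Gdf11 had a log2 fold change of 0.45, and the median of the 4 was 0.23, with 2 higher and 0 lower at an unadjusted p under 0.05, against 17.3% of all genes. Among 16 genes that store, activate or trap ligands, 6 passed the filter, with a median of -0.16, and 1 of the 6 was higher at that threshold, a share near the 17.3% of all genes. It was Itgb8, the integrin subunit that releases active TGF-beta, at 1.98 and 3.47 FPKM for Het at 72 h, beside 7.63 and 12.5 for cKO as labelled (log2 difference 1.56 ± 0.16, SE, limma adjusted p = 0.106). At 48 h Itgb8 stood at 7.12 (Het 1) and 6.17 (cKO 2). Furin, the protease that cuts the TGF-beta precursor, had a log2 fold change of -0.39 ± 0.15 (SE, adjusted p = 0.307 by limma). Lrrc32 (GARP), which tethers latent TGF-beta on regulatory T cells, stood at 200.2 and 334 FPKM for Het at 72 h against 136 and 299 (log2 difference -0.36, limma adjusted p = 0.341).

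The other SMADs, those of the bone morphogenetic protein arm, were less abundant than the 4 described above. Smad5 stood at 20.3 and 25.3 FPKM for Het at 72 h against 14.2 and 18.3 (log2 fold change -0.47 ± 0.13, SE, limma adjusted p = 0.230), and Smad1 had a log2 fold change of 0.09. Smad6 and Smad9 did not pass the filter.

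Of 15 partners, adaptors and co-repressors, 13 passed the filter, with a median log2 fold change of 0.04, and 1 was higher and 3 were lower at an unadjusted p under 0.05, against 17.3% of all genes. Fkbp1a, which guards type I receptors against activation without ligand, stood at -0.52 ± 0.12 (SE), Runx1 at -0.42 ± 0.13, the acetyltransferase Ep300 at -0.48 ± 0.15 and the co-repressor Tgif1 at 0.53 ± 0.16, with limma adjusted p from 0.207 to 0.252. At 48 h Tgif1 stood at 33.95 FPKM (Het 1) and 48.79 (cKO 2). All 16 ubiquitin ligases, phosphatases and related regulators passed the filter, with a median of 0.08, the same as over all genes. Of these 16, 1 was higher and 1 lower at that threshold, a smaller share than the 17.3% of all genes. Pmepa1, a TGF-beta induced gene that sequesters Smad2 and Smad3, stood at 23.6 and 32.5 FPKM for Het at 72 h against 44.97 and 65.3 (log2 difference 0.94 ± 0.12, SE, limma adjusted p = 0.121). At 48 h Pmepa1 was already higher in the library labelled cKO, at 52.4 FPKM against 36.5 in Het 1. The ligase Nedd4l stood at -0.77 ± 0.17, with a limma adjusted p of 0.192. The ligases Smurf1 (0.11) and Smurf2 (0.04), which act with Smad7 on type I receptors, had small log2 fold changes.

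Textbook targets of TGF-beta differed in both directions at 72 h. The list repeats Skil and Smad7, and also Pmepa1, Ldlrad4 and Tgif1 from the lists above, so its counts are not separate from theirs. Of 18 listed, 14 passed the filter, 8 were higher and 6 lower in the libraries labelled cKO, and the median log2 fold change was 0.19. At an unadjusted p under 0.05, 4 were higher (Pmepa1, Skil, Tgif1 and Cdkn1a) and 2 lower (Id3 and Bhlhe40), against 17.3% of all genes, with 0 passing limma's adjusted p. Id3, an inhibitor of E proteins that both TGF-beta and bone morphogenetic proteins induce, stood at 117 and 93.3 FPKM for Het at 72 h against 38.1 and 42.5 (-1.36 ± 0.17, SE, limma adjusted p = 0.121). Cdkn1a is a brake on the cell cycle that p53 also induces. At 72 h Cdkn1a stood at 134 and 74.9 FPKM for Het against 271 and 201 (1.21 ± 0.16, SE, limma adjusted p = 0.121). At 48 h, Cdkn1a stood at 98.2 FPKM (Het 1) and 137 (cKO 2), and Id3 at 43.7 and 55.0. Itgae (CD103), an integrin that TGF-beta induces in T cells, stood at 13.5 FPKM (Het 1) and 15.9 (cKO 2) in one pair at 72 h, and at 22.4 (Het 3) and 87.2 (cKO 4) in the other. Its difference was larger in the pair of replicates 3 and 4 (1.07 ± 0.45 over both, SE, limma adjusted p = 0.327), and Foxp3 stood at 0.25 ± 0.12 (SE, limma adjusted p = 0.367).

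**Figure D5:**
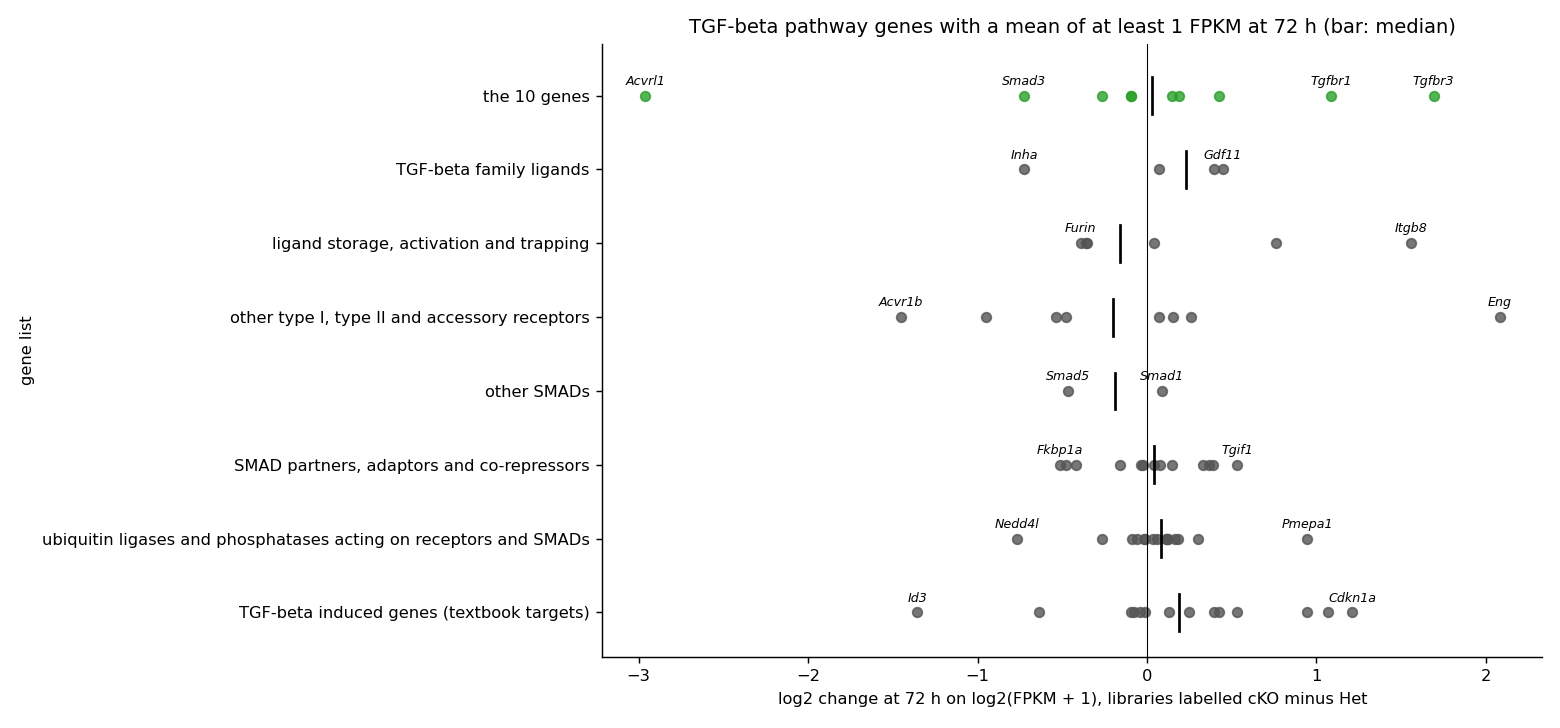
Log2 change between genotypes at 72 h (x axis, libraries labelled cKO minus Het) of the 10 genes (green). Grey points are genes of 7 TGF-beta pathway lists that passed the filter on low values. Some genes are in more than 1 list, and Skil and Smad7 are in both colours. A bar marks each median, and the lowest and highest gene are named. The medians lie between -0.20 and 0.23, while single receptors span from -2.96 (Acvrl1) to 2.08 (Eng).

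The genes whose pattern was most like that of Acvrl1 were ranked among 9283 genes of 5 FPKM or more on average, by Pearson's r over the 6 libraries after the mean of each table was taken away. The first 5 were Nsd3, a histone methyltransferase (r = 0.999), the glycosyltransferase B3gnt3 (r = 0.999), the adaptor subunit Ap5b1 (r = 0.999), the T cell receptor segment Trbv2 (r = 0.998) and the gamma-glutamyltransferase Ggt1 (r = 0.998). Their pattern was alike but not their size. Ggt1 stood at 13.6 and 13.1 FPKM for Het at 72 h and between 0.719 and 2.38 in the other 4 libraries, while Nsd3 was 120 in Het 1 against 68.7 in cKO 2. Among the other 9 genes described here, Smad4 (r = 0.944) and Smad3 (r = 0.908) ran most alike with Acvrl1, and Skil (r = -0.925) and Tgfbr1 (r = -0.917) most opposite. These r rest on 6 libraries that share tables and genotype, and describe them only.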

How the data were processed

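Per the submitters' processing notes, Bowtie2 2.2.3, TopHat2 2.0.12 and HTSeq 0.6.1 were used with the mouse build mm9. The sources used here do not give annotation, strand setting or gene lengths. Genotypes came from titles and genotype labels, since the protocol text prints the same alleles for both. Libraries were made with a SMART-Seq v4 kit, per the labels' protocols. The authors deposited FPKM, which were used without rescaling.

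Of 47347 shared rows, 278 with a running number were left out. Depth was estimated at 16500000 to 28800000 fragments per library, as the depth at which FPKM times the mean annotated transcript length (GENCODE M21, another build) gave whole fragments (within 0.02) for 86.2% to 87.1% of low values. Counting intervals cover counting error only.

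Values were fitted as log2(FPKM + 1), which understates changes of low genes, across all genes that averaged 1 FPKM or more over the libraries fitted. limma 3.58.1 (R 4.3.3) was used with trended variances, the table as a term and Benjamini-Hochberg adjustment. Genes to name were all 10 genes, the 2 to 4 genes of each list with the smallest p at 72 h, and the 5 most like Acvrl1. Bmp7, Inha, Lrrc32, Itgae, Foxp3, Smurf1, Smurf2, Acvr1, Bmpr2, Acvr2a, Acvr2b and genes listed to explain a count were named outside this rule, after their values were seen. The genes and lists were chosen with earlier results of these data known. Fits were also run on simulated data with the spread of the additive fit of all 6 libraries. The outcome is not given here and no result rests on it. Python 3.11.15 with pandas 2.3.3 and matplotlib 3.10.9 made tables and figures. Alternatives covered pseudocount, filter, scaling, table term, variance trend, replicate block and leaving out each library.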

Additional observations from a re-analysis of the deposited data

Results flagged for a closer look

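In 7 genes the difference between genotypes had opposite signs at 48 h and in both pairs at 72 h. The term for the change of the difference from 48 h to 72 h (log2) was 1.29 for Tgfbr1, 1.79 for Tgfbr3, 0.53 for Skil, -0.35 for Tgfbr2, -0.88 for Smad3, -0.31 for Smad4 and -0.72 for Smad7. The difference was tested as an interaction in limma and none of the 7 passed, with adjusted p from 0.742 to 0.856. Each genotype had 1 library at 48 h, and the log2 ratios there were as small as 0.05 (Smad4) and -0.10 (Tgfbr3). Opposite signs of this kind were found in 28.7% of all genes.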

How the results depend on the processing

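In every fit that gave a test, under each alternative, 0 of the 10 genes passed limma's adjusted p of 0.05, and the smallest adjusted p was 0.0617, for Acvrl1 at 72 h. Of 630 values of single genes under alternatives, 614 kept their direction and 16 did not. At 72 h and in the term for genotype by time, all 10 genes kept their direction under each alternative, and the log2 fold change at 72 h ranged from -3.35 to -2.50 for Acvrl1, from 1.05 to 1.98 for Tgfbr3, from 0.98 to 1.19 for Tgfbr1 and from -0.82 to -0.66 for Smad3. Leaving out a library at 72 h leaves no residual degree of freedom, so those values have no test.

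The count over all genes at 72 h went from 0 to 8 with no filter on low values. Over both times it was 9 in the first table alone, and 0 to 7 when a library was left out, 7 without Het 3 or without cKO 4. For time it went from 3 to 1 with a pseudocount of 5, to 0 with no filter, to 0 with the replicate block, and to 0 to 4 when a library was left out (0 without Het 1 or cKO 2 at 48 h, 1 without Het 1 and 4 without cKO 2 at 72 h). Replicate numbers are shared only between times, and groups of 1 at 48 h give no deviations from which a pairing could be checked, so the block rests on a shared number alone.

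Over both times, Tgfbr2 reversed to -0.0235 with quantile normalization and -0.0405 with median centring. Leaving out a library gave -0.0939 to 0.11 for Tgfbr2 and -0.0938 to 0.29 for Smad7 over both times. For time it gave -0.98 to 0.31 for Tgfbr1, -0.0629 to 0.28 for Tgfbr2, -0.38 to 1.41 for Tgfbr3, -0.11 to 0.0202 for Smad2, -0.23 to 0.64 for Smad3, -0.0335 to 0.29 for Smad4 and -0.40 to 0.14 for Skil. The cause was not tested. TPM rescaling moved the median of all genes in the term for genotype by time to 0.12 from 0.09.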
